A study of Danio rerio with 8 samples.

Results

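Sorted nkx2.5:ZsYellow+ cells of WT zebrafish embryos were compared with whole WT embryos in 4 RNA-seq libraries, out of 8 in the series. The sorted cells came from embryos carrying the nkx2.5:ZsYellow reporter at 28 hpf, and the whole embryos were at 48 hpf. All libraries came from AB/TU strain embryos. WT_sorted 1 was the control of Hdac1 depletion and WT_sorted 2 the control of Cyp26 deficiency. WT_embryo 1 was made from WT siblings of crg mutants, which carry an hdac1 mutation, and WT_embryo 2 was the whole-embryo control of Cyp26 deficiency. Elsewhere the study counts crg heterozygotes among WT siblings, and the labels do not say whether WT_embryo 1 held any. The sort kept reporter-positive cells that excluded a dead-cell dye, and the reporter is driven by a large nkx2.5 genomic fragment, so a sorted cell is defined by reporter fluorescence and not by its own nkx2.5 RNA. Tissue, stage, dissociation and sorting, RNA amplification and read layout all differed between the groups at once, and their parts cannot be told apart. A supplementary legend of the study also gives a later stage for the sorted cells than its labels do.

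The transcription factor Nkx2.5 marks heart progenitors and differentiated cardiomyocytes (CMs) of the zebrafish embryo. Progenitors of the second heart field (SHF) lie in pharyngeal mesoderm next to the heart tube and add CMs, and smooth muscle of the outflow tract (OFT), to its arterial pole. In zebrafish, nkx2.5-expressing pharyngeal mesoderm is also known to give rise to pharyngeal arch artery endothelium and head muscle. Tbx1 is a T-box factor of pharyngeal mesoderm and endoderm, and Myl7 is the myosin regulatory light chain of the heart.

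Gene counts summed to 19338878 and 13133725 in the sorted libraries and to 11070210 and 23462287 in the embryo libraries. All 31172 gene rows of the sorted-cell table were matched to the embryo table by coordinates, and 19453 reached a CPM (counts scaled to library size) of at least 1 in at least 2 of the 4 libraries. A gene was called when its adjusted p was below 0.05 and both sorted libraries lay on the same side of both embryo libraries. By this rule 4209 genes were higher in sorted cells (21.6% of the genes tested) and 4124 were lower (21.2%). Without the adjusted p, the libraries of the groups did not overlap for 7396 genes in the higher direction (38%) and 7353 in the lower (37.8%). Between the sorted libraries 10.1% of genes differed by more than 2-fold, against 18.9% between the embryo libraries and 52.6% to 58.9% between a sorted and an embryo library. Leaving out WT_sorted 1 lowered the counts to 2422 higher and 2491 lower, and leaving out WT_sorted 2 to 2083 and 1785. Nothing in the labels says that libraries of a group came from separate clutches, so the p-values measure only the spread between these libraries.

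The gene behind the reporter, nkx2.5, and the genes tbx1 and myl7, which the sort did not use, were higher in sorted cells. The nkx2.5 gene (ENSDARG00000018004, chromosome 14 from 25240905 to 25243698 of Zv9) was at 60.1 and 30.5 CPM in WT_sorted 1 and 2, and at 3.09 and 1.53 CPM in WT_embryo 1 and 2. Its log2 fold change was 4.33 ± 0.56 (SE, n = 2 libraries per group, adjusted p = 0.00183). The tbx1 gene (chromosome 5 from 16906410 to 16919398) was at 582 and 514 CPM in sorted cells and at 40.2 and 34.2 CPM in embryos, a log2 fold change of 3.88 ± 0.32 (adjusted p = 0.000541). The myl7 gene (chromosome 8 from 42650575 to 42658403) was at 371 and 237 CPM against 62.2 and 24.0 CPM, a log2 fold change of 2.82 ± 0.51 (adjusted p = 0.0056). For all 3 genes the lower sorted library was above the higher embryo library. In bulk RNA, fewer cells of a type and less RNA per cell cannot be told apart.

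SHF and heart progenitor factors did not move as a block. Of 17 factors tested, 7 were higher in sorted cells, 3 were lower and 7 were not called, against 21.6% of all genes called higher and 21.2% lower, and their median log2 fold change was 0.76 against -0.04 over all genes tested. Leaving out a library gave 5 to 9 factors higher and 1 to 3 lower, with 1 lower without WT_sorted 2. Beside nkx2.5 and tbx1, the zinc finger factor gata4 showed the largest difference, with 95.6 and 122.5 CPM in sorted cells against 5.995 and 3.69 CPM in embryos (log2 fold change 4.51 ± 0.39, adjusted p = 0.000593). The MADS-box factor mef2cb was at 67.5 and 92.9 CPM against 18.2 and 20.2 CPM (2.06 ± 0.32, adjusted p = 0.00332). A count by the 3′-most exon, here and below, sums the last exons of all annotated transcripts of a gene. By that count mef2cb had a log2 fold change of 0.46 and was not called. The TGF-beta binding protein ltbp3, a marker of SHF progenitors at the arterial pole, was at 64.6 and 37.4 CPM against 13.3 and 12.3 CPM (1.99 ± 0.38, adjusted p = 0.00664), and it was not called without WT_sorted 1 (1.54, adjusted p = 0.0603). The bHLH factor tcf21, which marks head muscle and epicardial progenitors, was at 24.0 and 24.2 CPM against 4.54 and 3.61 CPM, a log2 fold change of 2.57 ± 0.40 (adjusted p = 0.00332). The nkx2.5 paralogue nkx2.7 was at 25.4 and 9.92 CPM against 2.51 and 2.33 CPM (2.87 ± 0.58, adjusted p = 0.00818), a call that was lost without WT_sorted 1 (2.03, adjusted p = 0.0741).

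Factors that were lower included isl1 and hand2, which have further expression sites outside the heart field. The LIM-homeodomain factor isl1, which is also expressed in motor and sensory neurons, was at 9.61 and 10.21 CPM in sorted cells and at 30.7 and 80.5 CPM in embryos (-2.49 ± 0.50, adjusted p = 0.00779). The bHLH factor hand2, which is also expressed in fin bud and arch mesenchyme, was at 15.2 and 6.42 CPM against 47.2 and 24.2 CPM (-1.71 ± 0.53, adjusted p = 0.0373). The isl1 call was lost without either sorted library (adjusted p = 0.051 and 0.0518), and that of hand2 without WT_sorted 2 (-1.23, adjusted p = 0.189) or without WT_embryo 1 (-1.14, adjusted p = 0.136). The 3′-most exon of hand2 gave a log2 fold change of -1.89 (adjusted p = 0.0762). Among the factors not called, mef2ca stood at 170.4 and 187.6 CPM against 109.3 and 102.0 CPM, and the secreted factor fgf10a at 12.8 and 10.1 CPM against 11.5 and 10.1 CPM.

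**Figure D1:**
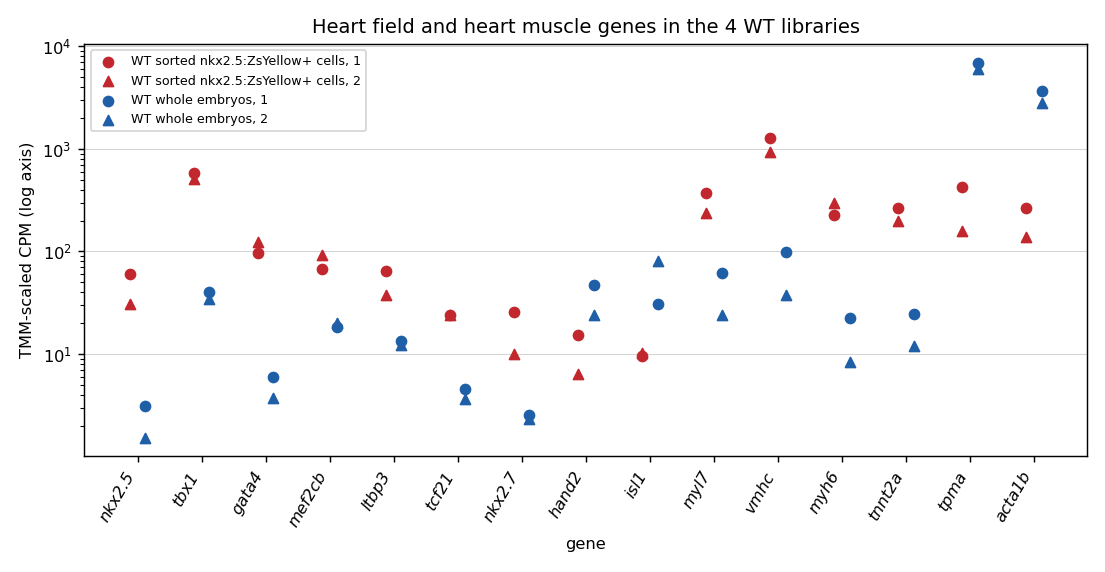
Levels of 15 heart field and heart muscle genes in CPM on a log axis, with a red point for each WT sorted library and a blue point for each WT embryo library. For nkx2.5, tbx1 and gata4 the red points lie above the blue, and for isl1, tpma and acta1b they lie below.

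CM genes went in both directions. Of 26 sarcomere, calcium and other CM genes tested, 14 were higher in sorted cells and 6 were lower, against 21.6% and 21.2% of all genes, with a median log2 fold change of 1.37. The ventricular myosin heavy chain vmhc was at 1268 and 937 CPM in sorted cells and at 98.8 and 37.7 CPM in embryos, a log2 fold change of 4.02 ± 0.54 (adjusted p = 0.0021). The atrial myosin heavy chain myh6 was at 225 and 299.6 CPM against 22.2 and 8.403 CPM (4.11 ± 0.52, adjusted p = 0.00175). The cardiac troponin T gene tnnt2a was at 263 and 200.1 CPM against 24.5 and 12.01 CPM (3.68 ± 0.43, adjusted p = 0.0014). Genes of both chambers were therefore among those that were higher. The ryanodine receptor ryr2b, a calcium release channel, was at 44.8 and 41.8 CPM against 4.06 and 1.57 CPM (3.99 ± 0.53, adjusted p = 0.00201), and ttna, which encodes the giant sarcomere protein titin of heart and skeletal muscle, at 2352 and 1975 CPM against 201 and 469 CPM (2.69 ± 0.49, adjusted p = 0.00562).

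The 6 members that were lower were tpma, acta1b, myom1a, ldb3a, tbx2b and myoz2b, of which tpma and acta1b encode a tropomyosin and an actin made in large amounts by skeletal muscle, and tbx2b encodes a T-box transcription factor. The tpma gene was at 429.5 and 157 CPM in sorted cells and at 6934 and 6062 CPM in embryos (-4.47 ± 0.60, adjusted p = 0.00212). The acta1b gene was at 264 and 137 CPM against 3677 and 2787 CPM (-4.01 ± 0.48, adjusted p = 0.00149). Natriuretic peptide nppa, a chamber myocardium marker, did not separate the groups, with 29.5 and 22.5 CPM against 36.8 and 15.7 CPM. Leaving out either sorted library left 11 of the 26 genes called higher and 3 called lower.

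Of the 9 OFT smooth muscle genes tested, 2 were higher in sorted cells and none was lower, a share near the 21.6% of all genes called higher. The smooth muscle myosin heavy chain myh11a was at 66.3 and 127 CPM in sorted cells and at 5.80 and 2.97 CPM in embryos (4.49 ± 0.52, adjusted p = 0.00129). The actin-binding protein smtnb was at 55.4 and 55.1 CPM against 6.67 and 5.56 CPM (3.18 ± 0.34, adjusted p = 0.000998). The elastin gene elnb, an extracellular matrix gene of the mature OFT, was at 1.38 and 0.584 CPM in sorted cells and at 1.93 and 0.552 CPM in embryos, and the smooth muscle actin acta2 at 7.51 and 9.04 CPM against 6.87 and 7.72 CPM. Neither gene was called. Leaving out WT_embryo 1 raised the number of smooth muscle genes called higher from 2 to 5.

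Endothelial and endocardial genes were higher in sorted cells as a list. Of 27 tested, 22 were called higher, none was lower, and both sorted libraries lay above both embryo libraries for all 27, where 38% of all genes did so. The median log2 fold change was 2.53, and 18 to 25 genes were called when a library was left out. The ETS factor etv2, which specifies endothelial and blood progenitors, was at 239 and 251 CPM in sorted cells and at 11.1 and 9.25 CPM in embryos, a log2 fold change of 4.59 ± 0.32 (adjusted p = 0.000354). The endocardial factor nfatc1 was at 255 and 260.3 CPM against 12.5 and 5.69 CPM (4.84 ± 0.46, adjusted p = 0.000758). VE-cadherin, the endothelial junction protein encoded by cdh5, was at 321 and 414 CPM against 25.8 and 24.3 CPM (3.87 ± 0.32, adjusted p = 0.000541). The secreted endothelial protein egfl7 was at 215 and 229 CPM against 9.57 and 10.02 CPM (4.50 ± 0.31, adjusted p = 0.000354). The VEGF receptor kdrl was at 276 and 288 CPM against 51.3 and 42.2 CPM (2.59 ± 0.29, adjusted p = 0.00123), but its 3′-most exon gave a log2 fold change of 0.89 and no call. The sorted libraries were close to each other for each of these genes, and no embryo library came near them.

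Myeloid genes, which mark neutrophils and macrophages, were also higher in WT sorted cells. Of 15 tested, 10 were called higher and none lower, against 21.6% of all genes called higher, with a median log2 fold change of 1.6. The lysozyme gene lyz was at 880.0 and 1634 CPM in sorted cells and at 89.5 and 78.7 CPM in embryos (3.90 ± 0.43, adjusted p = 0.00115). The neutrophil peroxidase mpx was at 184 and 402 CPM against 48.1 and 28.2 CPM (2.94 ± 0.48, adjusted p = 0.00395), and the neutrophil protease npsn at 149 and 296 CPM against 32.0 and 24.4 CPM (2.98 ± 0.41, adjusted p = 0.00233). The summed level of the 15 genes was 1510 and 2920 CPM in WT_sorted 1 and 2, and 349 and 277 CPM in WT_embryo 1 and 2. Without WT_sorted 2 the number called fell from 10 to 6. The endothelial list was higher in the same libraries, and the part of blood cells in its level was not tested.

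The 4 libraries with a mutation or depletion, which took no part in the test, gave the same direction for most called genes. They differ in tissue, stage and preparation in the same way as the WT groups, so they are no independent check. Of the 4209 genes called higher, 91.9% were also higher in both of the other sorted libraries than in both of the other embryo libraries, where 33.4% of all genes tested were. Of the 4124 called lower, 91.7% were lower there, against 35.2% of all genes. The higher order held there for 16 of the 27 endothelial genes and for 2 of the 15 myeloid genes. The etv2 level was 13.1 CPM in Hdac1-depleted and 139 CPM in Cyp26-deficient sorted cells, against 11.1 CPM in crg mutant and 11.9 CPM in Cyp26-deficient embryos. The lyz level was 6.30 and 1330.1 CPM in these sorted libraries, against 29.6 and 83.6 CPM in the embryo libraries. In contrast, nkx2.5 was at 50.4 and 77.7 CPM in these sorted libraries against 0.909 and 2.60 CPM in the embryo libraries, and tbx1 at 398 and 418 CPM against 33.3 and 33.3 CPM. Each of these conditions had 1 library, so differences between them have no replicate check.

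In 8 lists of other tissues most genes were lower in sorted cells. Among liver genes, which encode secreted blood proteins, 14 of 16 were lower, with a median log2 fold change of -7.27. Lens crystallin and lens fibre genes were lower in 12 of 14 (median -6.15), skeletal muscle genes in 20 of 24 (-4.58), erythroid genes in 14 of 18 (-4.39) and epidermal and periderm genes in 15 of 19 (-4.01). Neural progenitor and glial genes were lower in 10 of 13 (-2.88), ionocyte genes in 7 of 9 (-2.74) and pigment cell genes in 8 of 12 (-2.28). Without WT_sorted 2, 5 pigment cell genes were called lower. With no filter on low values, 4 lens genes were called lower. The shares called lower in these 8 lists lie above the 21.2% of all genes.

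Other tissue lists are set against 21.6% of all genes called higher and 21.2% called lower. The share called higher lay near or below that of all genes in each of them. Most genes were also lower in the pancreas and intestine list and in the yolk list. Pancreas and intestine genes were lower in 8 of 13 and higher in 1 (median -2.91), yolk genes were lower in 4 of 6 and higher in 1 (-3.41), and inner ear and lateral line genes were lower in 5 of 10 and higher in 2 (-0.87). Neuronal gene rows were lower in 7 of 16 (-1.1), with overlapping rows named nsfa counted apart, both of them lower. Photoreceptor genes were lower in 6 of 13, with a median of -0.01. Notochord and somite genes were lower in 4 of 12 and higher in 2 (-0.77), and head and pharyngeal muscle genes were lower in 3 of 8 and higher in 2 (-0.33). The 2 head muscle members called higher were tbx1 and tcf21, both also counted among the SHF factors. The muscle factor myod1 was among those called lower. Of 7 hatching gland genes 1 was lower (-2.67), and of 5 thyroid genes 1 was lower and 1 higher (-0.17), shares near or below those of all genes. With a library left out, the number called lower ran from 4 to 11 for neuronal genes, from 1 to 5 for hatching gland genes, from 2 to 4 for inner ear genes, from 5 to 7 for pancreas and intestine genes and from 1 to 2 for thyroid genes. At a CPM of at least 10, 2 photoreceptor, 3 inner ear and 4 pancreas and intestine genes were called lower, and by the 3′-most exon 2 yolk genes were.

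The apolipoprotein gene apoa1a was at 2.71 and 1.82 CPM in sorted cells and at 5806 and 5346 CPM in embryos (-11.25 ± 0.59, adjusted p = 0.000305). The globin gene hbae3 was at 13.1 and 4.89 CPM against 3017 and 2031 CPM (-8.13 ± 0.69, adjusted p = 0.000552), and the muscle creatine kinase ckmb at 117 and 54.8 CPM against 7307 and 6723 CPM (-6.35 ± 0.58, adjusted p = 0.000691). The periderm keratin krt4 was at 986 and 316 CPM against 32675 and 16793 CPM (-5.25 ± 0.78, adjusted p = 0.00292). The brain fatty acid binding protein fabp7a was at 22.4 and 25.4 CPM against 411 and 557 CPM (-4.34 ± 0.34, adjusted p = 0.000497). None of these RNAs was absent from the sorted libraries. The carboxylesterase gene ces3 was at 0 counts in both sorted libraries and at 109 and 57.2 CPM in embryos, which makes it at least 809-fold lower when the sorted group is set at 3 counts. The lens chaperone cryaa was likewise at 0 in both sorted libraries against 28.6 and 24.1 CPM, at least 283-fold lower.

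The sorted libraries differed from each other in some of these tissues. The summed lens level was 128 CPM in WT_sorted 1 and 10.4 CPM in WT_sorted 2, with 2850 and 2820 CPM in the embryo libraries. Summed skeletal muscle genes stood at 4860 and 2600 CPM in WT_sorted 1 and 2, epidermal genes at 4410 and 2420 CPM and erythroid genes at 253 and 147 CPM. In WT_embryo 1 and 2 these sums were 72600 and 66100 CPM, 58800 and 29600 CPM, and 10000 and 6190 CPM. The embryo libraries thus also differed from each other in epidermal and erythroid genes. The other 4 of the 8 lists differed less, with liver at 105 and 96.9 CPM, ionocytes at 122 and 110 CPM, neural progenitors and glia at 152 and 164 CPM and pigment cells at 309 and 316 CPM. Genes that stood apart were found inside and outside these lists. The hatching enzyme gene he1a was at 62.5 CPM in WT_sorted 1 and 0.219 CPM in WT_sorted 2, the fast muscle myosin myhz2 at 497 and 34.4 CPM, and the cartilage and notochord collagen col9a1 at 143 and 5.62 CPM. All 3 genes were higher in both embryo libraries than in either sorted library, and none was called. With a prior of 0.5 CPM, 15 genes were more than 20-fold higher in WT_sorted 1 than in WT_sorted 2, and 2 genes were in the other direction. Without WT_sorted 1, or without WT_sorted 2, 14 of 14 lens genes were called lower, and without WT_embryo 1 or WT_embryo 2 it was 5 genes.

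**Figure D2:**
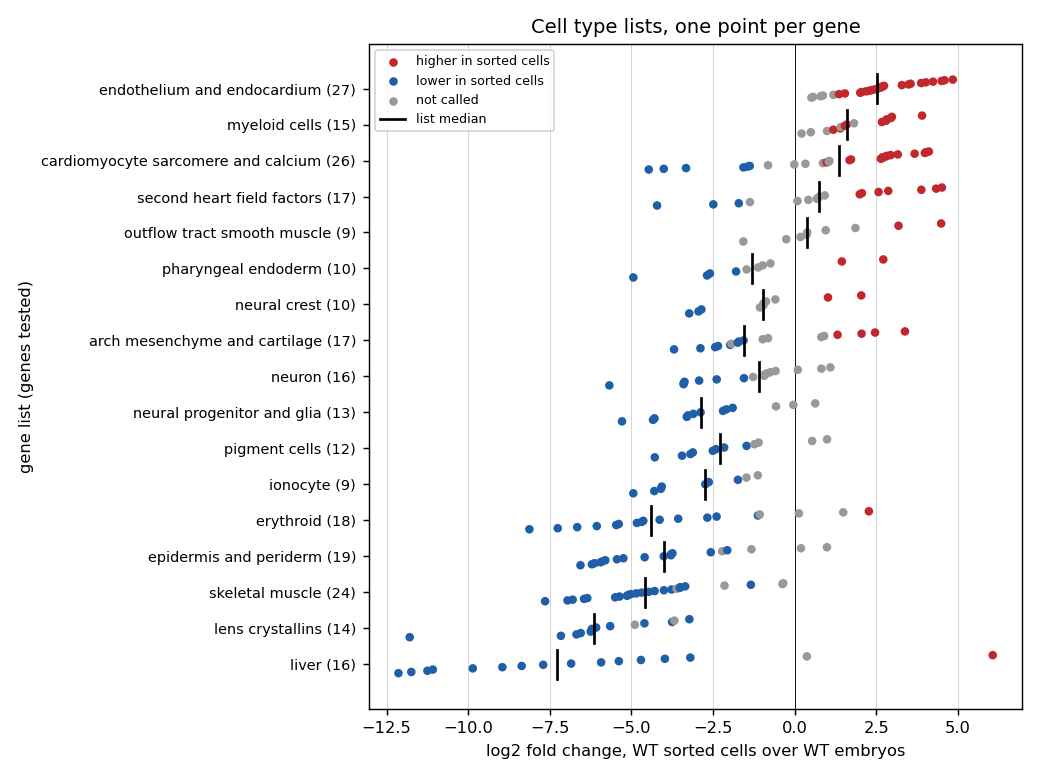
The log2 fold change of each gene in 17 cell type lists, with positive values higher in WT sorted cells, a black bar at each list median and colours for the call. The endothelial points all lie to the right of 0, and nearly all liver, lens and skeletal muscle points lie to the left.

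Exceptions within these lists were few. The thyroid hormone transport protein ttr was the liver list member called higher, at 8.38 and 10.3 CPM in sorted cells against 0.290 and 0.0424 CPM in embryos (6.07 ± 0.88, adjusted p = 0.00274). The mitochondrial iron importer slc25a37 was the erythroid member called higher, at 14.4 and 16.6 CPM against 2.90 and 3.48 CPM (2.27 ± 0.44, adjusted p = 0.00697), a call lost without WT_sorted 2 (adjusted p = 0.0553). The broadly expressed epithelial keratin krt8 stood at 1651 and 1271 CPM in sorted cells and at 1480 and 1078 CPM in embryos and was not called. The slow muscle myosin smyhc1 was at 484 and 535 CPM against 1651 and 933 CPM, a log2 fold change of -1.34 ± 0.39 (adjusted p = 0.0282), the smallest among the skeletal muscle genes called. Its 3′-most exon gave the other direction (0.60, adjusted p = 0.297), and the call was lost without WT_sorted 1 (-1.27) or WT_sorted 2 (-1.42).

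Genes of the tissues around the pharyngeal arches went in both directions. Of 17 arch mesenchyme and cartilage genes, 4 were higher and 8 were lower, and of 10 neural crest genes 2 were higher and 3 were lower, against 21.6% and 21.2% of all genes. The neural crest shares and the share of arch genes called higher lie near these. The SOX factor sox9a was at 276 and 239 CPM in sorted cells against 41.5 and 51.7 CPM (2.46 ± 0.30, adjusted p = 0.00151), and the endothelin ligand edn1 at 43.7 and 35.7 CPM against 5.03 and 2.72 CPM (3.38 ± 0.45, adjusted p = 0.00197). The endothelin receptor ednraa and the homeobox factor prrx1a were the other arch members called higher, with log2 fold changes of 2.05 and 1.31, and twist1a (1.02) and snai1b (2.04), factors of mesenchyme and crest, were the neural crest members called higher. The prrx1a call was lost by its 3′-most exon (0.33, adjusted p = 0.507) and without WT_sorted 1 or WT_sorted 2 (adjusted p = 0.0797 and 0.0844). The twist1a call was lost without WT_sorted 1, WT_sorted 2 or WT_embryo 2 (adjusted p = 0.133, 0.23 and 0.0888), and that of snai1b without WT_sorted 1 (adjusted p = 0.103). Members that were lower included the distal-less homeobox gene dlx5a at 4.86 and 7.66 CPM against 36.7 and 30.8 CPM (-2.43 ± 0.40, adjusted p = 0.00416) and the arch homeobox gene barx1 at 3.27 and 3.50 CPM against 24.2 and 25.9 CPM (-2.89 ± 0.39, adjusted p = 0.00216). The neural crest and epidermal factor tfap2a was at 26.0 and 30.6 CPM against 219 and 191 CPM (-2.86 ± 0.29, adjusted p = 0.000929). Outside both lists, the mesenchyme homeobox factor meox1 was at 118 and 81.5 CPM in sorted cells against 22.2 and 17.5 CPM (2.33 ± 0.33, adjusted p = 0.00261). Without WT_sorted 1 no neural crest gene was called higher, and without WT_sorted 2 or WT_embryo 2 it was 1. The neural crest genes called lower numbered 5 without WT_embryo 1. The arch mesenchyme genes called lower numbered 4 without WT_sorted 2 and 5 without WT_embryo 1.

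Pharyngeal endoderm genes were mostly at low levels in both groups. Of 10 tested, 2 were higher and 4 were lower, against 21.6% and 21.2% of all genes, with a median log2 fold change of -1.3. The counts were 0 and 2 without WT_sorted 1, 0 and 1 without WT_sorted 2, 1 and 3 without WT_embryo 1 and 0 and 4 without WT_embryo 2, and 1 and 2 at a CPM of at least 10. The pouch endoderm factor pax9 was at 2.20 and 1.68 CPM in sorted cells and at 14.12 and 10.99 CPM in embryos (-2.68 ± 0.50, adjusted p = 0.00604), a call that was lost without WT_sorted 2 (adjusted p = 0.05). The parathyroid and gill factor gcm2 was at 0.613 and 0 CPM against 13.8 and 7.17 CPM (-4.94 ± 1.08, adjusted p = 0.011). The members that were higher were foxi1, at 12.01 and 11.6 CPM against 4.74 and 3.95 CPM (1.45 ± 0.44, adjusted p = 0.0347), and the endoderm and endothelial factor sox17, at 1.74 and 1.53 CPM against 0.290 and 0.212 CPM (2.71 ± 0.73, adjusted p = 0.0231). Neither was called without WT_sorted 1 (adjusted p = 0.149 and 0.112) or without WT_sorted 2 (adjusted p = 0.15 and 0.1), and leaving out WT_embryo 2 also ended both calls (adjusted p = 0.0722 and 0.0952). Without WT_embryo 1, or by DESeq2, sox17 was not called (adjusted p = 0.0528 and 0.0589). The study's candidate gene ripply3, a co-repressor of T-box factors, did not reach the filter, with expected counts of 16.2 and 7.8 in the sorted libraries and 2 and 3 in the embryo libraries.

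Retinoic acid (RA) is made by Aldh1a enzymes, bound by Crabp proteins, sensed by RAR and RXR receptors and degraded by Cyp26 enzymes. Of 24 RA pathway genes tested, 7 were higher and 7 were lower in sorted cells, against 21.6% and 21.2% of all genes. The 3 Cyp26 genes did not move together. The cyp26c1 gene was at 322 and 305 CPM in sorted cells against 21.6 and 24.0 CPM (3.78 ± 0.30, adjusted p = 0.000497). In contrast, cyp26b1 was at 12.2 and 10.9 CPM against 42.4 and 51.1 CPM (-2.02 ± 0.33, adjusted p = 0.00396) and cyp26a1 at 7.31 and 8.53 CPM against 27.3 and 16.9 CPM (-1.48 ± 0.41, adjusted p = 0.0261). The cyp26a1 call was lost without WT_sorted 1, WT_sorted 2 or WT_embryo 1 (adjusted p = 0.143, 0.112 and 0.0804), and by its 3′-most exon (-0.96, adjusted p = 0.19).

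The RA-producing enzyme aldh1a2 was at 208 and 179.6 CPM in sorted cells against 76.9 and 59.5 CPM (1.51 ± 0.29, adjusted p = 0.00706), and missed the call without WT_sorted 1 (adjusted p = 0.0578). The RA-binding protein crabp2b was at 238 and 258 CPM against 82.0 and 47.3 CPM (1.94 ± 0.35, adjusted p = 0.00559). The receptors rxrba, rxraa and rargb were also higher, with log2 fold changes of 1.65, 1.51 and 1.87. The rxraa and rargb calls were lost without WT_sorted 1 (adjusted p = 0.0734 and 0.0584), and all 3 without WT_sorted 2 (adjusted p = 0.0535 for rxrba, 0.0597 for rxraa and 0.0824 for rargb). The 3′-most exon of rxraa gave 0.92 (adjusted p = 0.0899). Proteins of retinol transport were lower: the serum carrier rbp4 was at 2.86 and 6.05 CPM against 806 and 482 CPM (-7.18 ± 0.57, adjusted p = 0.000497) and the retinol importer stra6 at 9.403 and 13.9 CPM against 59.6 and 65.2 CPM (-2.43 ± 0.35, adjusted p = 0.00252). Without WT_sorted 1 the counts were 3 higher and 5 lower, and without WT_sorted 2 they were 3 and 4.

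Among 27 readouts of BMP, FGF, Wnt, Hedgehog and Notch signalling, 12 were higher and 7 were lower, against 21.6% and 21.2% of all genes. The FGF-induced ETS factor etv5b was at 466 and 496 CPM in sorted cells against 70.4 and 76.6 CPM (2.71 ± 0.30, adjusted p = 0.00111), and the phosphatase dusp6, which limits FGF signalling, at 412 and 345 CPM against 125 and 99.8 CPM (1.75 ± 0.30, adjusted p = 0.0048). The FGF readouts etv5a, spry4, spry1 and pea3 were also higher, while spry2 was lower. The Hedgehog receptor and target ptch1 was at 313 and 387 CPM against 75.7 and 112 CPM (1.90 ± 0.33, adjusted p = 0.00489), and the Hedgehog target gli1 was higher with a log2 fold change of 1.85. The BMP target id1 was at 83.7 and 94.7 CPM against 422 and 418 CPM (-2.23 ± 0.29, adjusted p = 0.00186), whereas id3 was higher (1.64). Without WT_sorted 2, 4 readouts were called lower. With all libraries, the Notch readouts hey1, her4.1 and heyl were lower, as was hes6.

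Of the other genes the study followed, hdac1, which encodes a histone deacetylase, stood at 742 and 717 CPM in sorted cells and at 363 and 664 CPM in embryos (0.51 ± 0.38, adjusted p = 0.307). It was called higher when WT_embryo 2 was left out (0.97, adjusted p = 0.0366). The cell cycle inhibitor cdkn1a was at 25.8 and 12.3 CPM against 4.64 and 5.90 CPM (1.85 ± 0.49, adjusted p = 0.022) and lost its call without WT_sorted 1 (adjusted p = 0.195) or without WT_embryo 1 (adjusted p = 0.0542).

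Of 28 replication and mitosis genes, 4 were higher, 6 were lower and 18 were not called, with a median log2 fold change of -0.21. These shares are at or below those of all genes, 21.6% higher and 21.2% lower. The proliferation antigen MKI67 was at 1283 and 1641 CPM in sorted cells and at 474 and 543 CPM in embryos (1.52 ± 0.34, adjusted p = 0.0113). The replication clamp pcna was at 346 and 255 CPM against 577 and 569 CPM (-0.93 ± 0.31, adjusted p = 0.047). Neither call held without WT_sorted 2 (adjusted p = 0.0515 and 0.256), and that of pcna was also lost without WT_sorted 1 (adjusted p = 0.091), with scaling to total counts (-0.85, adjusted p = 0.0627) and by the 3′-most exon (-0.34, adjusted p = 0.466). Without WT_sorted 1, 2 genes of the list were called higher and 2 lower, and without WT_sorted 2 it was 0 and 3. With a call also held to a difference of more than 2-fold between the nearest libraries of the groups, 1 was higher and 4 were lower.

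The hox genes pattern the body axis, with low paralogue numbers anterior and high numbers posterior. Of 18 genes in paralogue groups 1 to 5, 1 was higher and 3 were lower in sorted cells, and of 22 genes in groups 9 to 13 none was higher and 13 were lower, against 21.6% and 21.2% of all genes. All 22 posterior genes lay lower in both sorted libraries than in both embryo libraries, where 37.8% of all genes did so. At a CPM of at least 10, 8 posterior genes were called lower. The group median was 0.48 for group 1, -0.02 for group 2, -0.69 for group 3, -0.52 for group 4 and -1.97 for group 5. Group 6 had a median of -1.17, with hoxb6a at -3.562, hoxb6b at -2.338, hoxc6a at -0.001 and hoxc6b at 0.043. From group 7 to group 13 the medians ran from -2.5 to -1.33. The one gene called higher was hoxa3a, at 74.4 and 70.8 CPM against 31.0 and 34.2 CPM (1.15 ± 0.28, adjusted p = 0.0162), which was not called without WT_sorted 1 (adjusted p = 0.11) or WT_sorted 2 (adjusted p = 0.102), nor by its 3′-most exon (adjusted p = 0.0563). The posterior gene with the highest mean level, hoxb9a, was at 16.4 and 14.4 CPM against 38.4 and 39.3 CPM (-1.33 ± 0.32, adjusted p = 0.0149), also not called without WT_sorted 1 (adjusted p = 0.0849) or WT_sorted 2 (adjusted p = 0.126), nor by its 3′-most exon (adjusted p = 0.0514). Without WT_sorted 2, 5 of the 22 posterior genes were called, and without WT_sorted 1 or WT_sorted 2 none of the anterior genes was called higher and 2 were lower.

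**Figure D3:**
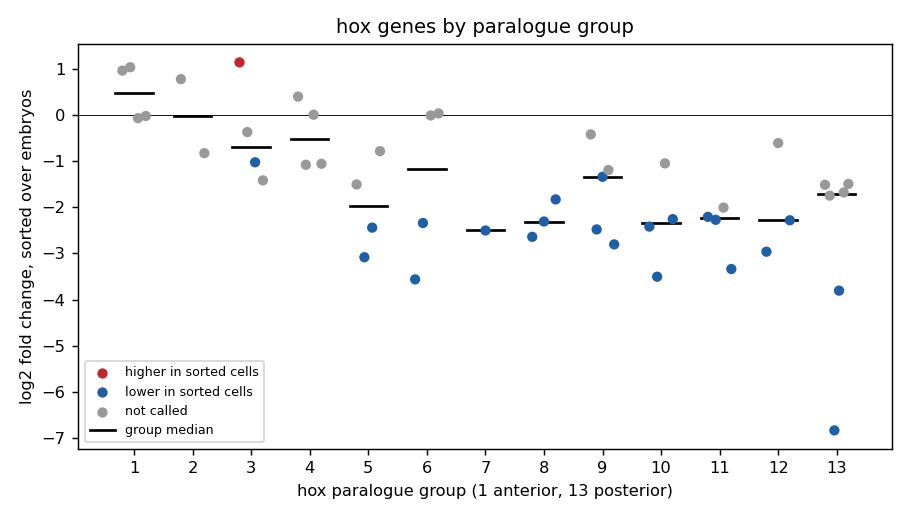
The log2 fold change of 48 hox genes by paralogue group, with a black bar at each group median and positive values higher in WT sorted cells. Groups 1 to 4 spread around or just below 0, and every gene of groups 7 to 13 lies below 0.

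Immediate early and heat shock genes, which respond within minutes to stimulation or stress, were higher in sorted cells. Of 35 tested, 29 were called higher and none lower, against 21.6% of all genes, and the median log2 fold change was 3.08. The AP-1 subunit fosl1a was at 2009 and 1963 CPM in sorted cells and at 1.84 and 0.806 CPM in embryos (10.63 ± 0.62, adjusted p = 0.000305). Further AP-1 subunits followed, with fosb at 193 and 208 CPM against 1.55 and 1.36 CPM (7.11 ± 0.36, adjusted p = 0.000305) and fosl2 at 960.5 and 1058 CPM against 19.2 and 11.03 CPM (6.07 ± 0.45, adjusted p = 0.000413). The stress factor atf3 was at 637 and 726 CPM against 11.4 and 7.34 CPM (6.19 ± 0.41, adjusted p = 0.000354), and the early growth response gene egr1 at 398 and 486 CPM against 33.6 and 10.1 CPM (4.35 ± 0.60, adjusted p = 0.00231). The inducible chaperone hsp70l was at 165 and 66.5 CPM against 2.32 and 6.75 CPM (4.64 ± 0.67, adjusted p = 0.00262). The cytokine signalling inhibitor socs3a was at 147 and 116 CPM against 4.45 and 2.33 CPM (5.31 ± 0.44, adjusted p = 0.000541).

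The fosl1a level in the 2 other sorted libraries was 1992 and 2479 CPM, against 1.74 and 4.24 CPM in the other embryo libraries. In those 4 libraries 29 of the 35 genes were higher in both sorted than in both embryo libraries, where 33.4% of all genes were. When a WT library was left out, 24 to 31 of the 35 genes were called higher, and without WT_sorted 1 a single gene, the chaperone hsp90aa1.1, was called lower. The labels and methods give dissociation and sorting for the sorted libraries only. Its part in these levels was not tested and cannot be told apart from tissue and stage.

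**Figure D4:**
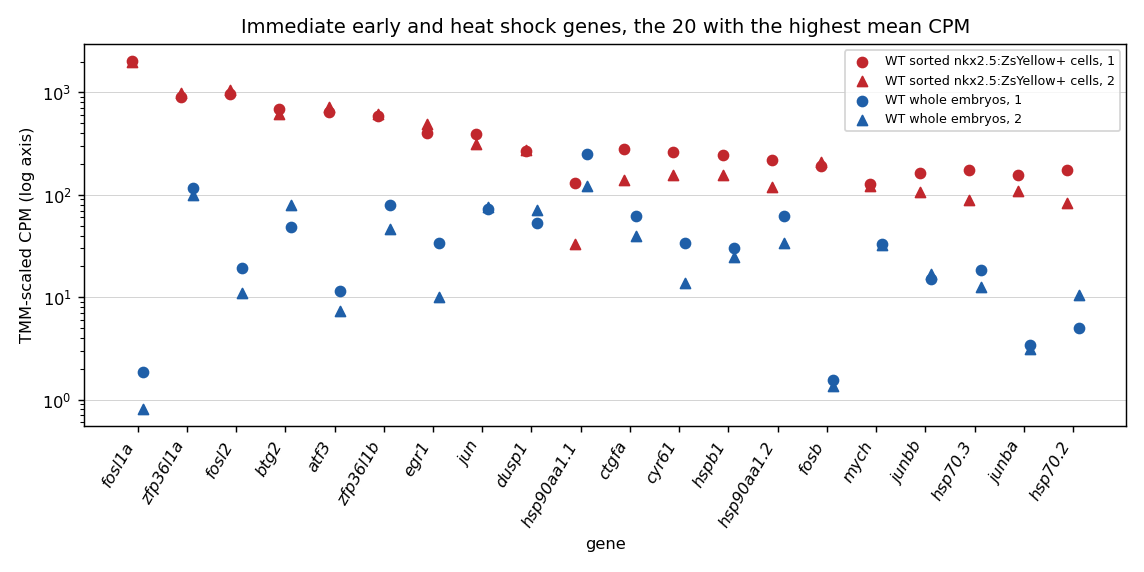
Levels of the 20 immediate early and heat shock genes with the highest mean CPM, on a log axis, with red points for the WT sorted libraries and blue points for the WT embryo libraries. The red points lie above the blue for every gene shown except hsp90aa1.1.

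Genes called were ranked by size of change, with clone and contig names left out. The 15 largest rises with at least 10 CPM in both sorted libraries included fosl1a, il11a, cbx7a and ESM1. The rest were 10 histone rows and a row named for the signal recognition particle RNA. The interleukin gene il11a had 587 and 488 counts in sorted cells and 0 and 1 in embryos, a library-scaled ratio of 1095 with a 95% exact interval of 196 to 43300. The Polycomb subunit cbx7a was at 1557 and 1399 CPM against 2.42 and 2.97 CPM (9.08 ± 0.45, adjusted p = 0.000305), and ESM1, which encodes a proteoglycan secreted by endothelium, at 1820.1 and 2391 CPM against 4.45 and 3.52 CPM (9.05 ± 0.49, adjusted p = 0.000305). Of the 15 genes with the largest fall by the same ranking, with at least 10 CPM in both embryo libraries, 11 encode plasma proteins, apolipoproteins or characteristic enzymes of liver, gut or yolk. They are ces3, ces2, APOB (1 of 3), apoea, apoa2, serpina1l, apobl, apoa1a, a2ml, fgb and hao1. The apoa2 gene was at 1.12 and 0.511 CPM in sorted cells against 4499 and 3134 CPM (-12.14 ± 0.69, adjusted p = 0.000305).

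After the values had been seen, histone genes and small non-coding RNAs were collected by name. Histone rows were collected after they were seen to fill 10 of the 15 largest rises ranked above. No count of calls is therefore given for them. The summed level of the 41 histone rows was 1070 and 1170 CPM in sorted cells and 577 and 668 CPM in embryos. A separate list of 4 replication-dependent histone genes went the other way in summed level. It stood at 240 and 232 CPM in sorted cells and at 393 and 316 CPM in embryos. By gene it did not, with 2 of the 4 called higher and 1 lower, against 21.6% and 21.2% of all genes. Their median log2 fold change was 2.71. The histone row HIST2H2AB (17 of 30) on chromosome 25 had 558 and 360 counts in sorted cells and 0 in both embryo libraries, at least 312-fold higher when the embryo group is set at 3 counts. The linker histone gene histh1l went the other way, at 129 and 107 CPM against 357 and 258 CPM (-1.38 ± 0.31, adjusted p = 0.0119), but without WT_sorted 1 or WT_sorted 2 it was not called (adjusted p = 0.0607 and 0.106). Many of these rows are near-identical copies, so the division of reads among them is uncertain. Of 3640 small RNA rows, 86 passed the filter, which a row could do through the sorted libraries alone, so no count of calls is given for these either. The summed level of all 3640 rows was 887 and 802 CPM in sorted cells and 54.1 and 62.0 CPM in embryos. The small nuclear RNA row named 7SK with the highest level stood at 66.6 and 65.9 CPM against 1.06 and 1.103 CPM (5.92 ± 0.38, adjusted p = 0.000327). Replication-dependent histone mRNAs and these small RNAs are known to lack poly(A) tails, and the part of library preparation in these differences was not tested.

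Cytoplasmic ribosomal protein genes were lower in 44 of 72, and none was higher, against 21.2% and 21.6% of all genes, with a median log2 fold change of -1.33. By the 3′-most exon, 19 were lower and 2 higher, with a median of -0.66. The stalk protein gene rplp0 was at 917 and 536 CPM in sorted cells and at 2840.0 and 3338 CPM in embryos (-2.09 ± 0.41, adjusted p = 0.00767), but its 3′-most exon gave -0.71 and no call (adjusted p = 0.167), while rps8a stood at 2574 and 2116 CPM against 1580.4 and 1692 CPM and was not called. Without WT_sorted 2 the number called lower was 20.

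Calls also varied with gene length. Genes were put in 5 classes of near-equal size by exonic length. Among the 3894 shortest (60 to 1243 bases) 21.1% were higher and 26.4% lower, and among the 3890 longest (3830 to 100444 bases) 32.8% were higher and 11.2% lower. The median log2 fold change ran from -0.27 in the shortest to 0.51 in the longest class, with -0.39 in the class next to the shortest. Genes with 1 exon, of which 622 were tested, had a median of 1.32, against -0.06 for the others. Along 6690 transcripts with at least 4 exons and at least 100 counts in each library, the last of 10 equal segments held 11.1% of the counts in both sorted libraries, 10.6% in WT_embryo 1 and 9.49% in WT_embryo 2. The first exon held a median of 1.55% and 1.41% of the counts in sorted cells and 2.03% and 3.4% in embryos. The last exon held a median of 35.6% in both sorted libraries, 36.3% in WT_embryo 1 and 30.8% in WT_embryo 2. By all of these measures counts in sorted cells lay nearer to the 3′ end than in WT_embryo 2. By the last segment and the first exon WT_embryo 1 lay between them, and by the last exon it lay just beyond the sorted libraries. The part of length and read position in the calls was not tested. Counting by the 3′-most exon gave 3216 genes higher and 3258 lower. Of these, 2613 and 2688 were also called in the same direction by whole-gene counts.

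**Figure D5:**
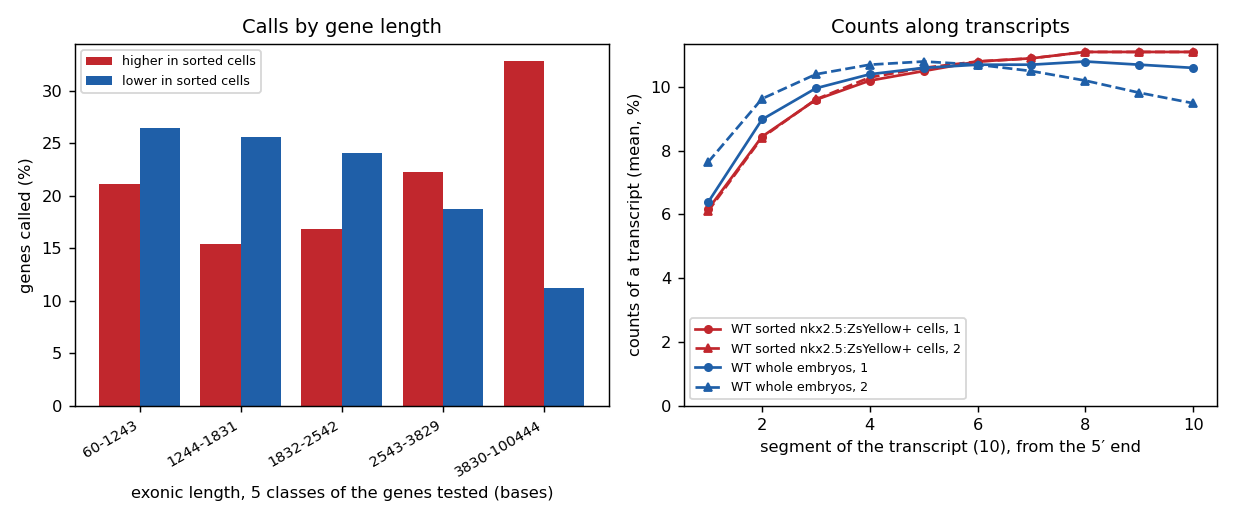
Left, percent of genes called higher (red) and lower (blue) in WT sorted cells in 5 classes of exonic length. Right, mean percent of a transcript's counts in each of 10 segments from the 5′ end, with each exon's counts spread evenly over its length: the sorted libraries end at 11.1% in the last segment and WT_embryo 2 at 9.49%.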

How the data were processed

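RNA-seq of WT whole embryos and sorted cells was analysed from the expected counts per gene and exon that the authors deposited in a table for embryos and a table for sorted cells. Per the study's methods the reads were aligned to Zv9/danRer7 with Strand-NGS, the embryo libraries were single-end and stranded, and the sorted-cell RNA was amplified and sequenced paired-end. The counts are fractional and were rounded to whole numbers. No read or sequence was used. Rows were joined by coordinates, since the tables were made separately, and 31151 of 31172 had the same name in both.

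Genes with at least 1 CPM in at least 2 of the 4 WT libraries were tested with the quasi-likelihood test of edgeR 4.0.16 (R 4.3.3) after TMM scaling, sorted against embryo, with Benjamini-Hochberg adjustment over 19453 genes. The SE of a log2 fold change is its size divided by the square root of the F statistic. The labels give no replicate numbers, so replicates are numbered by accession. The design puts 2 tables, 2 stages and 2 preparations on the 2 groups, so no term for them could be fitted. Bounds set a group at 0 to 3 counts, and intervals are 95% exact intervals that cover counting error only.

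Genes named are nkx2.5, tbx1 and myl7, members of the heart, vessel, endoderm, RA, stress and study gene lists, and the 4 most abundant members of the other lists. The 15 called genes with the largest change in each direction are also named. These had at least 10 CPM in both libraries of the higher group and no clone or contig name. A few members of other lists were named for their direction or level and chosen after their values were seen. They are ttr, slc25a37, smyhc1, edn1, dlx5a, barx1, twist1a, snai1b, myhz2, wt1b, tbx18, hnf1ba, myod1 and the less abundant signalling readouts. Members and lists were chosen with earlier results of these data known. Names not found in the tables were left out. Alternatives were DESeq2 1.42.0, other scalings and filters, a fold limit, the 3′-most exon and leaving out each library. A further alternative took embryo counts as sums over exon rows matched by coordinates and transcript. Some members counted in the lists are not reported here by name. Promoter motifs were not analysed here. Analyses also used Python 3.11.15.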

Additional observations from a re-analysis of the deposited data

How the results depend on the processing

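No paired analysis was made, because the sorted cells at 28 hpf and the whole embryos at 48 hpf were separate material. The labels name only the experiment that each WT library was a control of. The number of genes called higher ran from 2083 to 4467 and the number called lower from 1785 to 4028 when 1 library was left out, with the low ends without WT_sorted 2. Of the 90 genes given with a fold change, 1 changed direction under an alternative: smyhc1 had a log2 fold change of 0.6 by its 3′-most exon, without a call. Counting that exon took 11 others below the threshold, leaving out WT_sorted 1 took 19 and leaving out WT_sorted 2 took 20. A 2-fold limit between the nearest libraries ended the calls of hand2, cyp26a1, pcna, smyhc1 and twist1a. Neither of these counts over all genes moved by over 1.5 times under another scaling, filter, test, fold limit or way of counting exons. Counts within lists did. Beside examples given with their lists, anterior hox genes called lower numbered 5 with no filter, at a CPM of at least 10 and by the 3′-most exon and 6 by DESeq2, against 3, and none was higher by that exon. Under the 2-fold limit 1 neural crest gene was higher, against 2, and at a CPM of at least 10 no liver or thyroid gene was higher, against 1 each. The list median changed sign for proepicardium and kidney mesoderm with the 3′-most exon (-0.05, against 0.65) and for the RA pathway with a CPM of at least 10 (0.25, against -0.21). The cause was not tested. Depth limits genes of a few counts, such as ripply3.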

Other observations

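The gene with the most counts in every sorted library was the 1-exon gene si:dkey-153m14.1 (chromosome 20 from 55449015 to 55449904 of Zv9). It was at 36177 and 39995 CPM in WT_sorted 1 and 2, and at 72787 and 37668 CPM in Hdac1-depleted and Cyp26-deficient sorted cells. The embryo libraries split by experiment, with 0 CPM in WT_embryo 1 and 0.0826 CPM in crg mutants against 666 CPM in WT_embryo 2 and 1077 CPM in Cyp26-deficient embryos. It was chosen after its values were seen and was not called (adjusted p = 0.111).

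Of 10 proepicardium and kidney mesoderm genes tested, 4 were higher and 2 were lower, against 21.6% and 21.2% of all genes. The list median log2 fold change was 0.65, and the share called lower lies near that of all genes. Those called higher were podxl and wt1b, given here, and aldh1a2 and tcf21, given above. The member tbx18 was not called, at 13.4 and 8.46 CPM in WT sorted cells against 9.38 and 10.4 CPM in WT embryos. The podocalyxin gene podxl, of coelomic epithelium, podocytes and vessels, was at 291 and 298 CPM in WT sorted cells against 91.6 and 67.0 CPM in WT embryos (1.89 ± 0.30, adjusted p = 0.0037), but its 3′-most exon gave 1.03 and no call (adjusted p = 0.0507). The Wilms tumour factor wt1b was at 38.6 and 27.1 CPM against 5.71 and 6.28 CPM (2.45 ± 0.39, adjusted p = 0.00352). In contrast, the kidney tubule gene cdh17 was at 13.9 and 2.41 CPM against 39.2 and 51.5 CPM (-2.46 ± 0.74, adjusted p = 0.0342), not called without WT_sorted 2 (adjusted p = 0.0632), WT_embryo 1 (adjusted p = 0.0885) or WT_embryo 2 (adjusted p = 0.112), nor with no filter (adjusted p = 0.0695). The other member called lower, hnf1ba, was at 3.475 and 1.896 CPM against 19.15 and 15.87 CPM. Outside this list, the transcription factor eya1, of pharyngeal and otic tissue, was at 234 and 222 CPM against 96.9 and 77.6 CPM (1.39 ± 0.28, adjusted p = 0.0085). The eya1 gene was not called without WT_sorted 1 (adjusted p = 0.063) or WT_sorted 2 (adjusted p = 0.059).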
